A study of Mus musculus with 60 samples.

Results

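Potassium channels that open on depolarisation or on a rise of intracellular calcium set how fast a neuron repolarises and how often it fires. The voltage-gated (Kv) channels are tetramers: Kv1 channels act mainly in axons, Kv2 and Kv4 in the soma and dendrites, Kv3 in fast-spiking cells, and Kv7 carries the M-current that restrains repetitive firing. The EAG, ERG and ELK channels form a related voltage-gated family, and the calcium-activated BK, SK and IK channels follow calcium entry. The subunits of the Kcnf, Kcng, Kcns and Kcnv genes modify Kv2 channels without forming channels of their own. They are called Kv5 to Kv9 modifiers here, a label that leaves out Kv7. The genes described here were taken by symbol: every protein-coding Kcna, Kcnb, Kcnc, Kcnd, Kcnf, Kcng, Kcnh, Kcnq, Kcns or Kcnv gene, Kcnma1 and Kcnn1 to Kcnn4. The annotation held 45 such symbols, 42 had a row among the 18088 genes of the table, and all 42 reached a value of 10 or more in 5 or more libraries, as did 17810 genes in the table. Kcna7, Kcna10 and Kcnv2 were not analysed here. Of the 42, 40 reached 10 in all 60 libraries, Kcnh8 in 48 and Kcnn4 in 17.

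RNA was measured by stranded mRNA sequencing in prefrontal cortex of C57BL/6J mice aged 25 postnatal days. One genotype was wild type (WT), and the other, called Het, carried 1 copy of the C456Y allele of Grin2b (Grin2b+/C456Y), a gene for an NMDA receptor subunit (GluN2B). From postnatal day 3 to 24 all received vehicle, fluoxetine (a serotonin reuptake inhibitor) or lithium (a mood stabiliser) by way of the mother's milk, and each genotype, treatment and sex had 5 libraries, or 10 per genotype and treatment. The labels do not say whether replicates are separate animals or share litters, so p-values measure the spread between these samples, which may be technical. The allele is a missense change present in every cell, so the amount of Grin2b RNA is no test of the labels. Recovered reads per library ran from 23901635 to 37769417. The cortical excitatory markers were abundant, Slc17a7 at a mean of 50150.3 and Tbr1 at 3316.08 normalised reads in WT vehicle. Far from their groups lay the fifth replicates of the male and of the female WT lithium libraries, and WT vehicle female replicate 2, and results that rest on them are given with and without them. In 10 libraries, 16 pseudogenes were low, at a mean log2 level of 1.78 to 3.15 against at least 4.6 in the other libraries. These were 9 Het fluoxetine libraries and WT vehicle female replicate 2, and the 16 pseudogenes were themselves picked as those strongly lower in Het than in WT under fluoxetine.

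Values are normalised read counts, that is, reads divided by 1 size factor per library. To compare levels between genes they were divided by the length of the longest transcript in kilobases. In WT vehicle mice, Kcnh3, an ELK channel of the forebrain, was among the 3 highest at 1548 ± 156 reads per kb (SD, n = 10), and so was Kcnf1, a silent modifier subunit, at 1256 ± 83.7. Their ranges overlapped, and Kcnf1 stood clear of the genes below it. The BK channel Kcnma1 was at 757 ± 62.4 and the Kv3 gene Kcnc4 at 725 ± 76.0. From the gene next below Kcnf1 down to Kcng2 at 43.5 ± 5.94 each gene's range over the 10 libraries overlapped the next, so their order is not fixed beyond the spread. The other gaps lay below Kcng2 and below Kcnq1 (14.4 ± 1.79), with Kcnh8 at 4.70 ± 2.20 and Kcnn4, the IK channel better known from blood cells, at 2.54 ± 1.45. By family, the 8 EAG, ERG and ELK genes held 18.3% of the summed level of the 42, the 9 Kv5 to Kv9 modifiers 18.2%, the 5 Kv7 genes 16.5% and the 4 Kv3 genes 15.5%. The 6 Kv1 genes held 11.8%, the 3 Kv4 genes 5.71%, Kcnma1 4.78% and the SK and IK genes 3.27%.

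**Figure D1:**
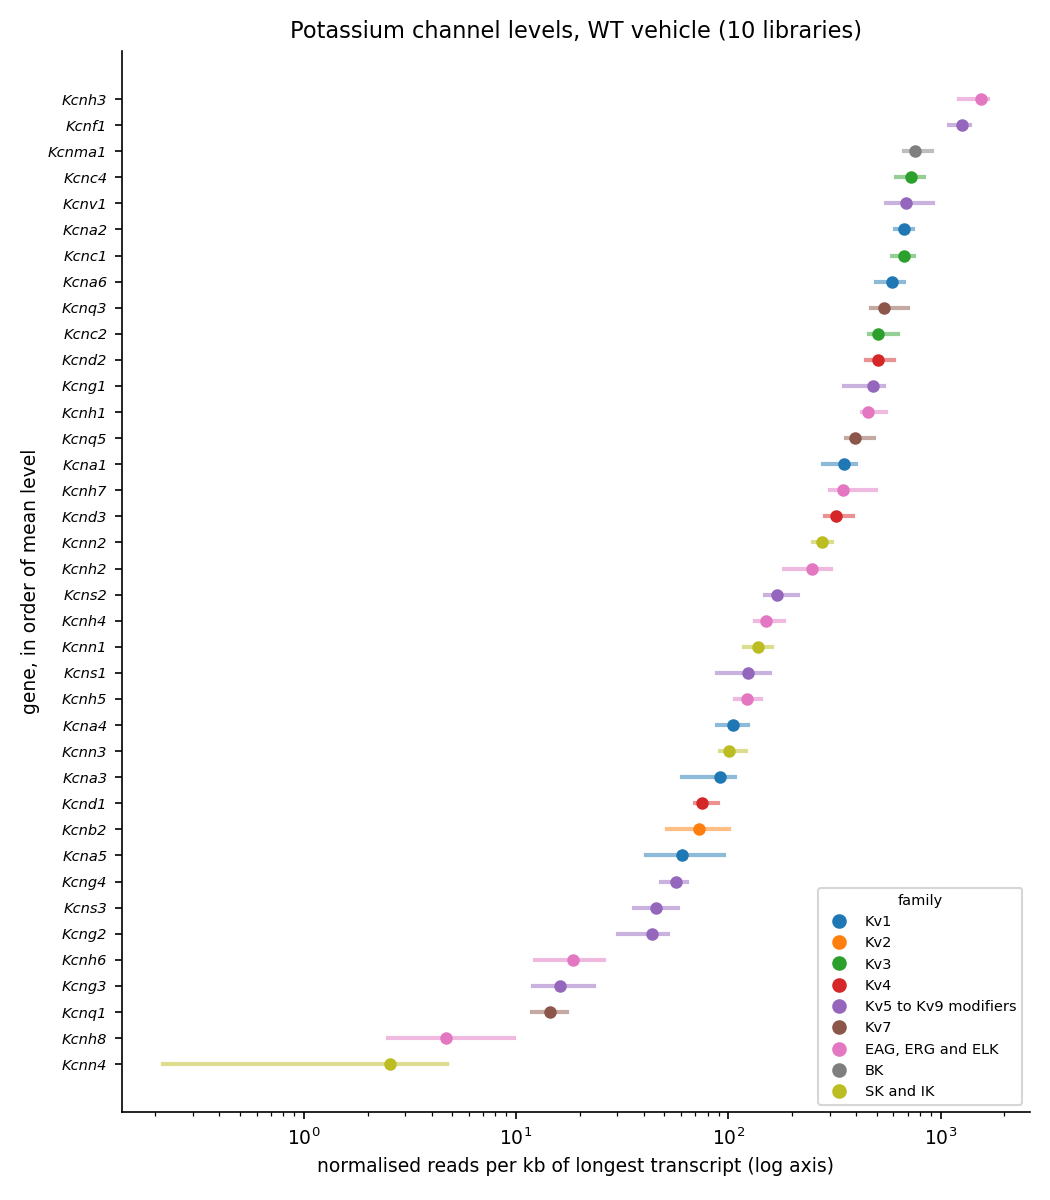
Mean level of each of 38 of the genes in the 10 WT vehicle libraries, in normalised reads per kb on a log axis, with a line from the lowest to the highest library and colour by family. Kcnh3 and Kcnf1 stand above the rest of those drawn, and Kcnh8 and Kcnn4 lie lowest.

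Within groups, the Kv3 gene Kcnc1 was among the steadiest, with a residual SD of 0.0832 on the log2 scale. The lowest genes, Kcnn4 and Kcnh8, were the least steady, with residual SDs of 0.864 and 0.647.

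The tests are from limma on log2(value + 1), with Benjamini-Hochberg adjustment over all 17810 genes, averaged over the sexes with 10 libraries against 10, and a gene is called below an adjusted p of 0.05. A fold is a log2 difference on that scale, with its standard error (SE). In bulk tissue, fewer cells of a type and less RNA per cell cannot be told apart.

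No potassium channel gene of the 42 was called between the genotypes in vehicle, where 0.59% of all genes were (0.517% higher and 0.073% lower). By limma, 2 had an unadjusted p below 0.05, and edgeR's quasi-likelihood test called 0. The 3 with the smallest p were the modifier Kcns2 (log2 fold -0.14, adjusted p = 0.283), the Kv7 gene Kcnq1 (-0.41, adjusted p = 0.334) and the SK channel Kcnn2 (-0.09, adjusted p = 0.52). Kcns2 ran from 733 to 911 with a median of 858 normalised reads in Het vehicle and from 817 to 1156 with a median of 907 in WT vehicle. The ranges overlapped, and the 10 Het libraries were all below the WT mean of their sex. In lithium the genotypes again had 0 members called (0.0281% of all genes were, 0.0168% higher and 0.0112% lower), with 6 at an unadjusted p below 0.05 by limma and 0 called by edgeR. The smallest p there belonged to Kcng4 (0.32, adjusted p = 0.277), Kcnc4 (0.18, adjusted p = 0.286) and Kcnd3 (-0.18, adjusted p = 0.304). No member was called for a genotype by lithium interaction (0.0674% of all genes, 0.00561% higher and 0.0618% lower), with 3 at an unadjusted p below 0.05 and 0 called by edgeR.

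Fluoxetine in WT mice moved 5 of the 42 genes, 2 higher and 3 lower. This is 11.9% of them, near the 8.43% of all genes called (4.35% higher and 4.08% lower), and the median log2 fold of the 42 was -0.00 against 0.00 over all genes. The changes lay in the calcium-activated and modifier groups and in 1 ELK channel. Kcnn3, an SK channel, a class that carries the medium afterhyperpolarisation current in many neurons, had the smallest p. It ran from 759 to 1006 with a median of 839 in vehicle and from 492 to 835 with a median of 669 in fluoxetine, a log2 fold of -0.37 (SE 0.08, adjusted p = 0.00103). Of the fluoxetine libraries 9 of 10 lay below the vehicle mean of their sex, although the ranges overlapped. Kcnn2, another SK channel, went the other way, from a range of 925 to 1138 (median 1001) to 993 to 1290 (median 1149), with a log2 fold of 0.18 (SE 0.05, adjusted p = 0.00729). The remaining changes were in Kcnf1, Kcng1 and Kcnh4.

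Kcnf1, one of the 3 highest genes, fell from 5227 to 6603 (median 6045) in vehicle to 3802 to 5881 (median 5358) in fluoxetine, by 0.20 on the log2 scale (adjusted p = 0.00604). Kcng1, a modifier of Kv2 channels, fell from 1441 to 2207 (median 2077) to 1065 to 1813 (median 1592), a log2 fold of -0.36 (SE 0.10, adjusted p = 0.0135). All 10 fluoxetine libraries were below the vehicle mean of their sex for both genes. Kcnh4, an ELK channel, rose from 529 to 726 (median 584) to 633 to 770 (median 695), a log2 fold of 0.25 (SE 0.07, adjusted p = 0.016). Its groups overlapped in the top vehicle library. All 5 calls were kept when any 1 of the 20 libraries was left out, with edgeR and after correction for GC content. After that correction the split over the 42 genes was 4 higher and 3 lower, with 11.9% of all genes called. Endothelial markers were lower in 3 of 6 in these libraries, with summed levels of 6386 to 11152 in fluoxetine and 7336 to 10313 in vehicle. Lower too were 1 of 8 pericyte and smooth muscle markers and 1 of 6 oligodendrocyte precursor markers, and 1 of 10 striatal markers was higher. Over all genes, 4.35% were called higher and 4.08% lower in this comparison. Of the pericyte and smooth muscle markers, 5 of 8 had an unadjusted p below 0.05, with a median log2 fold of -0.28 over the list. The part of these cells was not tested.

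In GRCm38 with GENCODE M21, Kcnn3 (ENSMUSG00000000794) lies at 89520164 to 89675132 on the plus strand of chromosome 3. Kcnf1 (ENSMUSG00000051726) lies at 17172100 to 17176888 on the minus strand of chromosome 12. Kcng1 (ENSMUSG00000074575) lies at 168260117 to 168281736 on the minus strand of chromosome 2, and Kcnh4 (ENSMUSG00000035355) at 100740376 to 100759942 on the minus strand of chromosome 11. Of the genes called in lithium or in Het mice, Kcna1 (ENSMUSG00000047976) is on chromosome 6 at 126640397 to 126646384, minus strand, and Kcnd2 (ENSMUSG00000060882) on chromosome 6 at 21215503 to 21729805, plus strand. Kcnma1 (ENSMUSG00000063142) is on chromosome 14 at 23289431 to 24014491, minus strand, and Kcns2 (ENSMUSG00000050963) on chromosome 15 at 34837355 to 34843407, plus strand.

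Lithium in WT mice moved 11 of the 42, with 7 higher and 4 lower (26.2%, against 19.2% of all genes, of which 9.34% higher and 9.87% lower). After GC correction the split was 11 higher and 2 lower, with 21.2% of all genes called, and 8 of the 11 calls were kept. Among the higher genes, the Kv1 axonal channels Kcna1 and Kcna2 and the BK channel Kcnma1 kept their call without any 1 library. Kcna1, which codes for Kv1.1, ran from 1131 to 1603 with a median of 1431 in vehicle and from 1482 to 2479 with a median of 1858 in lithium. Its log2 fold was 0.42 (SE 0.08, adjusted p = 0.000313), all 10 lithium libraries lay above the vehicle mean of their sex, and the ranges overlapped. Its partner Kcna2 (Kv1.2) rose less, from 7072 to 8588 (median 7734) to 7853 to 10562 (median 8515), a log2 fold of 0.16 (SE 0.04, adjusted p = 0.0053). Kcna3, Kcna4, Kcna5 and Kcna6 were not called.

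Kcnma1, the pore of the BK channel that couples calcium to spike repolarisation, ran from 8125 to 10972 (median 9050) in vehicle and from 9613 to 13887 (median 10466) in lithium. Its log2 fold was 0.24 (SE 0.05, adjusted p = 0.00057), and it was kept without the 3 outlying libraries (adjusted p = 0.000227), which include the highest library of both groups. Kcng1 fell from a median of 2077 (1441 to 2207) to 1643 (974 to 1972), a log2 fold of -0.34 (SE 0.10, adjusted p = 0.0101). Kcnq1, a low gene, fell by 0.55 on the log2 scale (adjusted p = 0.0137), but its call was lost without the 3 libraries (adjusted p = 0.0798).

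A further 5 lithium calls in WT mice were near the threshold. They were Kcnn2 (0.13, adjusted p = 0.0309), Kcnd3 (0.20, adjusted p = 0.0387) and Kcnq5 (0.18, adjusted p = 0.0397) higher, and Kcng4 (-0.34, adjusted p = 0.0333) and Kcnh3 (-0.22, adjusted p = 0.0403) lower. Each kept its call in 7 to 13 of the 20 fits that left out 1 library. Kcnn2 (adjusted p = 0.0862), Kcng4 (0.24) and Kcnh3 (0.0722) were no longer called without the 3 libraries. By edgeR, Kcng4 (adjusted p = 0.0711) and Kcnh3 (0.0549) were not called. By limma after GC correction, Kcng4 (adjusted p = 0.11), Kcnh3 (0.105) and Kcnq5 (0.0508) were not. The count of 11 came to 6 without WT lithium female replicate 4, WT lithium male replicate 5 or WT vehicle female replicate 4, and to 7 without WT lithium female replicate 3. With only the WT lithium and WT vehicle libraries in the fit, 2 were called, as were 7.18% of all genes.

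Markers of other cells moved with lithium in the WT libraries. Of the microglial markers 7 of 8 were lower, with summed levels of 6983 to 10016 in lithium and 9718 to 11504 in vehicle. Endothelial markers were lower in 5 of 6, pericyte and smooth muscle markers in 6 of 8, meningeal markers in 6 of 7, astrocyte markers in 4 of 8 and oligodendrocyte precursor markers in 3 of 6. One striatal marker of 10 was higher. Over all genes, 9.34% were called higher and 9.87% lower in this comparison. Meningeal sums were 2872 to 6518 in lithium and 4200 to 7585 in vehicle. Of 13 interneuron markers, Pvalb and Cox6a2 were higher, and their summed level ran from 30096 to 38570 in lithium and from 31256 to 38820 in vehicle. No marker of these lists was at 0 in any of these libraries, and the part of these cells in the channel changes was not tested.

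In Het mice lithium moved 2 genes, both higher (4.76% of the 42, against 0.983% of all genes, 0.483% higher and 0.5% lower). Kcnn2 ran from 861 to 1052 with a median of 953 in Het vehicle and from 995 to 1193 with a median of 1080 in Het lithium, a log2 fold of 0.19 (SE 0.05, adjusted p = 0.0281). Kcns2 rose from a median of 858 (733 to 911) to 970 (891 to 1074), a log2 fold of 0.21 (SE 0.05, adjusted p = 0.0305). For both genes the 10 lithium libraries were all above the vehicle mean of their sex and the ranges overlapped. In these libraries 1 of 6 endothelial markers was lower and no other cell type marker was called. Leaving out 1 library at a time kept Kcnn2 in 16 of 20 fits and Kcns2 in 14. The count was 0 without Het lithium female replicate 2, Het lithium female replicate 3 or Het vehicle male replicate 3. It was 1 without Het lithium male replicate 1, Het lithium male replicate 4, Het vehicle female replicate 3 or Het vehicle female replicate 5.

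Kcnn2 (ENSMUSG00000054477) lies on chromosome 18 at 45268860 to 45686024 on the plus strand of GRCm38. Among the 42 it was the gene called higher in all 4 drug comparisons, a pattern singled out after its values were seen. Fluoxetine and lithium were compared with the same vehicle libraries within a genotype, so these are not independent. Its log2 folds were 0.18 in WT fluoxetine, 0.20 in Het fluoxetine (SE 0.05, adjusted p = 0.000525), 0.13 in WT lithium and 0.19 in Het lithium. The Het fluoxetine fold was 0.13 (SE 0.08, adjusted p = 0.698) with a term for the 10 libraries low in pseudogenes, and it was 0.31 after GC correction.

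**Figure D2:**
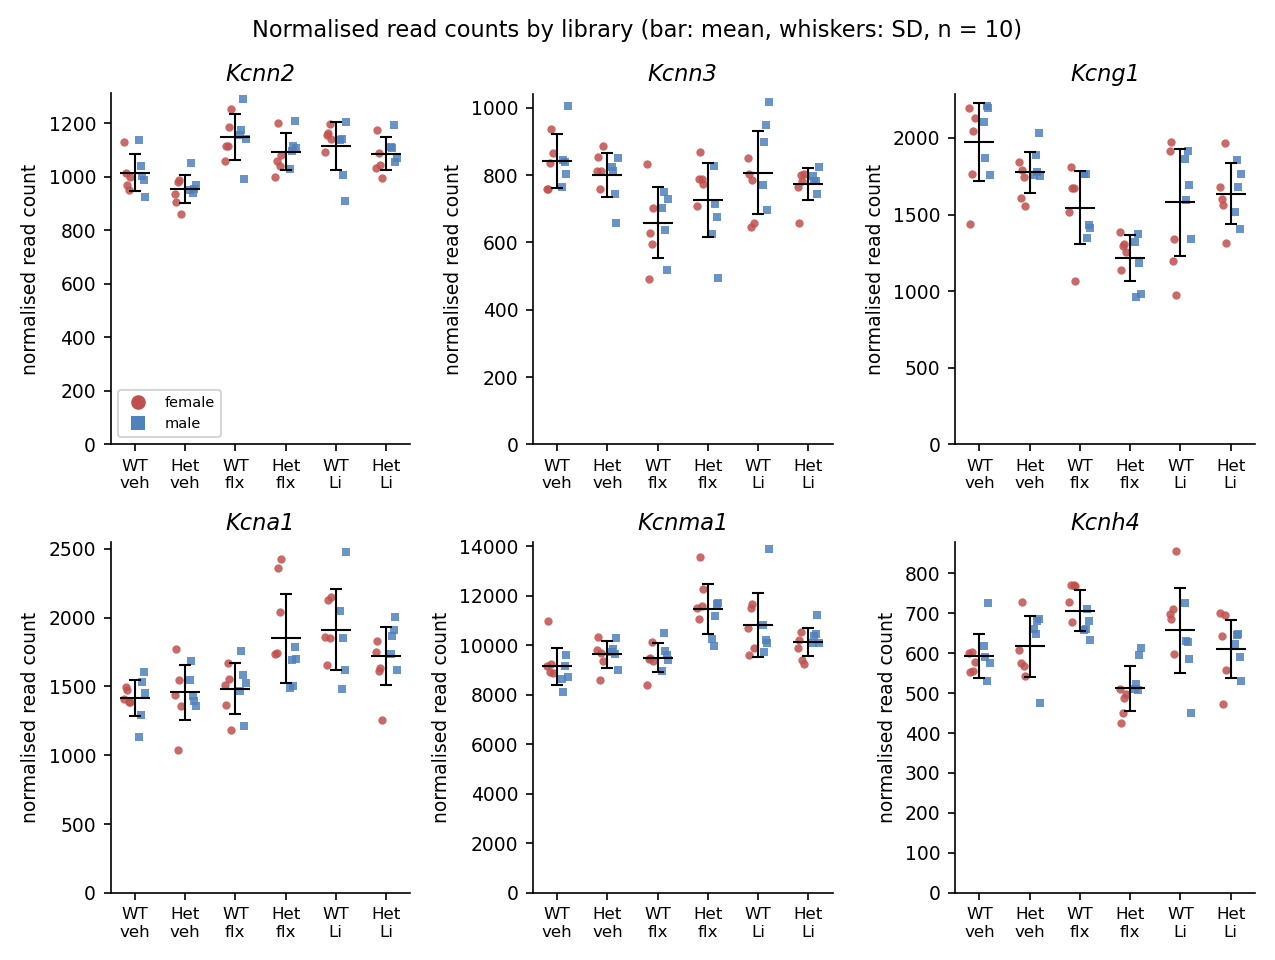
Normalised read counts of Kcnn2, Kcnn3, Kcng1, Kcna1, Kcnma1 and Kcnh4 in each of the 60 libraries, by genotype and treatment, with females as circles and males as squares, the bar at the mean and whiskers at 1 SD (n = 10). Kcnn2 is higher in each drug group than in its vehicle group, and Kcnh4 is higher in WT fluoxetine and lower in Het fluoxetine.

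The upstream sequence shown covers 4 genes called in a WT drug comparison whose RefSeq start equals the GENCODE start, from the RefSeq promoter table (GRCm38.p6). Of the 42 genes, 27 matched that table, in 33 windows of 250 bases before a start. Each is given from 5′ to 3′ on the gene's strand, and capitals mark any match on either strand to the GC box GGGCGG, the TATA box TATAAA, the cyclic AMP response element TGACGTCA, the CCAAT box or the TCF/LEF core CTTTGA. None of these 5 motifs lies within another.
Kcnn3, chr3:89519914-89520163, plus strand: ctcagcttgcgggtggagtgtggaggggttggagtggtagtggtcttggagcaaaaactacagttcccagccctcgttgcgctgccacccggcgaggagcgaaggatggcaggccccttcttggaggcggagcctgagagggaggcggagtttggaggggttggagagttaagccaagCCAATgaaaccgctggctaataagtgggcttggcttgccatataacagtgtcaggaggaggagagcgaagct
Kcnf1, chr12:17176889-17177138, minus strand: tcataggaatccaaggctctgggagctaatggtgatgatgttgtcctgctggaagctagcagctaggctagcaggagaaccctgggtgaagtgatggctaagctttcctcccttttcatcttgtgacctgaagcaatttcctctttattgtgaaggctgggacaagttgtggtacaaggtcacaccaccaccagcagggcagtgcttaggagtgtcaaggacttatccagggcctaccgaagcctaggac
Kcng4, chr8:119635681-119635930, minus strand: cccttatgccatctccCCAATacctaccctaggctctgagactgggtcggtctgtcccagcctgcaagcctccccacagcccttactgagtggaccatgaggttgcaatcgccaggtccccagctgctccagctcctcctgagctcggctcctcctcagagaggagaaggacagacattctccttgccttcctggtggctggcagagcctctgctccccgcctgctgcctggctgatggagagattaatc
Kcnq5, chr1:21961943-21962192, minus strand: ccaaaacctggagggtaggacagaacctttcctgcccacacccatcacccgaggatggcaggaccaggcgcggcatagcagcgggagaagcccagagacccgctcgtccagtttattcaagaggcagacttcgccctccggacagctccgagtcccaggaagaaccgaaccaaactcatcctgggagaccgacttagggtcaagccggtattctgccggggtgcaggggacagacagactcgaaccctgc
Kcnn3 and Kcng4 each held 1 CCAAT match, and Kcnf1 and Kcnq5 held no match to the 5 motifs. GGGCGG was in 60.6% of the 33 windows (20) against 32.7% of the 32851 windows of all genes. CCAAT was in 27.3% against 33.8%, and CTTTGA in 6.06% against 13.8%. TATAAA and TGACGTCA were in 0 of the 33, against 12.4% and 1.55% of all. A match is a description of letters.

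The widest changes by count were in Het mice given fluoxetine. Of the 42 genes, 23 differed between Het fluoxetine and Het vehicle, 14 higher and 9 lower, which is 54.8% against 39% of all genes (19.1% higher and 19.9% lower). GC correction left 16 calls, of which 14 were higher and 2 lower, and 21.3% of all genes were then called. Higher genes were 4 of the 6 Kv1 genes (Kcna1, Kcna2, Kcna4 and Kcna5), 2 of 3 Kv4 genes, Kcnq3 and Kcnq5 of Kv7, Kcnh1, Kcnh5 and Kcnh7, Kcnma1, Kcns2 and Kcnn2. Lower genes included Kcnc4 of Kv3, Kcnd1, Kcng1, Kcns1, Kcnh3, Kcnh4 and Kcnn1. The Kv2 gene Kcnb2 was not called.

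Kcng1 had the smallest p. It ran from 1558 to 2030 with a median of 1766 in Het vehicle and from 961 to 1383 with a median of 1273 in Het fluoxetine, with no overlap, and a log2 fold of -0.55 (SE 0.10, adjusted p = 2.03e-05). Kcnd2, the Kv4.2 channel of dendritic A-type current, rose from a median of 2515 (1951 to 2777) to 2976 (2741 to 3232). Its log2 fold was 0.30 (SE 0.05, adjusted p = 3.24e-05), and the overlap was narrow. Kcnd3 (Kv4.3) rose from a median of 2093 (1695 to 2755) to 2664 (2019 to 3306), a log2 fold of 0.33 (SE 0.07, adjusted p = 0.000242). The third Kv4 gene, Kcnd1, fell by 0.19 (adjusted p = 0.00662). The Kv4 genes thus went in both directions, but after GC correction Kcnd1 was no longer called (-0.09, adjusted p = 0.224). Kcnd2 (0.19) and Kcnd3 (0.32) were still called.

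Kcnma1 rose from a median of 9716 (8598 to 10332) to 11543 (9976 to 13561), a log2 fold of 0.25 (SE 0.05, adjusted p = 8.7e-05). Kcnc4, a Kv3 channel, fell from a median of 2906 (2398 to 3278) to 2310 (1845 to 2536), a log2 fold of -0.33 (SE 0.07, adjusted p = 9.91e-05). Kcnh3 fell from a median of 5600 (4821 to 6828) to 4343 (3997 to 5069), a log2 fold of -0.32 (SE 0.08, adjusted p = 0.000974). All 10 fluoxetine libraries lay on the same side of the vehicle mean of their sex for these 3 genes, and the ranges overlapped at one end. Kcna1 rose from a median of 1434 (1039 to 1771) to 1741 (1491 to 2429), a log2 fold of 0.34 (SE 0.08, adjusted p = 0.0012). Kcns2 rose by 0.25 (adjusted p = 0.000179), and Kcnn1, an SK channel, fell from a median of 548 (476 to 583) to 459 (407 to 512), by 0.23 on the log2 scale (adjusted p = 0.0044).

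Further calls in Het fluoxetine against Het vehicle were as follows. The Kv7 gene Kcnq3 rose by 0.27 (SE 0.06, adjusted p = 0.000256) and Kcnq5 by 0.25 (SE 0.07, adjusted p = 0.00244). Among the EAG and ERG channels, Kcnh5 rose by 0.28 (SE 0.07, adjusted p = 0.00153), Kcnh7 by 0.28 (SE 0.08, adjusted p = 0.00376) and Kcnh1 by 0.22 (SE 0.07, adjusted p = 0.0135). Among the Kv1 genes, Kcna2 rose by 0.16 (SE 0.04, adjusted p = 0.00256), Kcna4 by 0.27 (SE 0.08, adjusted p = 0.00575) and Kcna5 by 0.45 (SE 0.17, adjusted p = 0.0254). Kcnh4 fell by 0.27 (SE 0.07, adjusted p = 0.00237) and the modifier Kcns1 by 0.25 (SE 0.10, adjusted p = 0.0409). With 1 library left out at a time, Kcns1 kept its call in 7 of 20 fits and Kcna5 in 14.

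Between the genotypes within fluoxetine, 26 of the 42 differed, 16 higher and 10 lower in Het (61.9%, against 39.5% of all genes, 19.6% higher and 19.9% lower). After GC correction 14 differed, 12 higher and 2 lower, with 11.9% of all genes called. This comparison shares the Het fluoxetine libraries with the one above. Kcnh4 ran from 425 to 612 with a median of 508 in Het and from 633 to 770 with a median of 695 in WT. The groups did not overlap, and the log2 fold was -0.47 (SE 0.07, adjusted p = 4.4e-06). Kcnd2 also did not overlap, at 2741 to 3232 (median 2976) in Het and 2200 to 2561 (median 2419) in WT, a log2 fold of 0.30 (SE 0.05, adjusted p = 3.2e-05). For Kcnh3 the Het range of 3997 to 5069 (median 4343) lay below the WT range of 5394 to 6668 (median 5875), a log2 fold of -0.43 (SE 0.08, adjusted p = 3.59e-05). Kcnn1 fell by 0.31 (adjusted p = 0.000219) and the modifier Kcng2 by 0.49 (adjusted p = 0.000459). Neither was called after GC correction, with Kcnn1 at -0.12 (adjusted p = 0.121) and Kcng2 at -0.22 (adjusted p = 0.0736).

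Kcnma1 was higher in Het by 0.27 (SE 0.05, adjusted p = 3.97e-05). The remaining higher genes ran from Kcns2 at 0.16 (adjusted p = 0.0147) and Kcnq3 at 0.15 (adjusted p = 0.0359) to Kcnh7 at 0.36 (adjusted p = 0.000288). They included the Kv1 genes Kcna1 (0.31), Kcna2 (0.16), Kcna3 (0.27) and Kcna4 (0.22). Kcnc2, a Kv3 channel, was at 0.18 (adjusted p = 0.00899), and the modifiers Kcnv1 and Kcng3 were at 0.26 (adjusted p = 0.0201) and 0.30 (adjusted p = 0.0358). Kcnd3 (0.30), Kcnh5 (0.31), Kcnh1 (0.18) and Kcnq5 (0.19) were also higher. Lower genes also included Kcns1 (-0.42), Kcnc4 (-0.23), Kcng1 (-0.34) and Kcnd1 (-0.16). With 1 library left out at a time, Kcnh1 kept its call in 9 of 20 fits (edgeR adjusted p = 0.0518), Kcnq3 in 12 and Kcng3 in 14. Between the genotypes in fluoxetine, interneuron markers were higher in 2 and lower in 5 of 13, oligodendrocyte precursor markers lower in 3 of 6, and excitatory markers higher in 3 and lower in 1 of 11. Summed interneuron markers were 28791 to 37438 in Het and 29994 to 35374 in WT, and summed excitatory markers 120939 to 165800 and 139314 to 191469. Astrocyte, microglial and endothelial lists had 1 marker lower each, pericyte and meningeal lists 1 higher and 1 lower each, and immature neurons 1 higher. Over all genes, 19.6% were called higher and 19.9% lower in this comparison. The part of these cells was not tested.

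In all 7 comparisons of genotype and drug, 10 of the 42 were not called, among them Kcna6, Kcnb2, Kcnc1, Kcnh2, Kcnh6, Kcnh8, Kcnn4 and Kcns3. Close to the threshold were Kcnb2 between genotypes in fluoxetine (0.27, adjusted p = 0.0643) and Kcnc1 in Het lithium (0.13, adjusted p = 0.075).

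**Figure D3:**
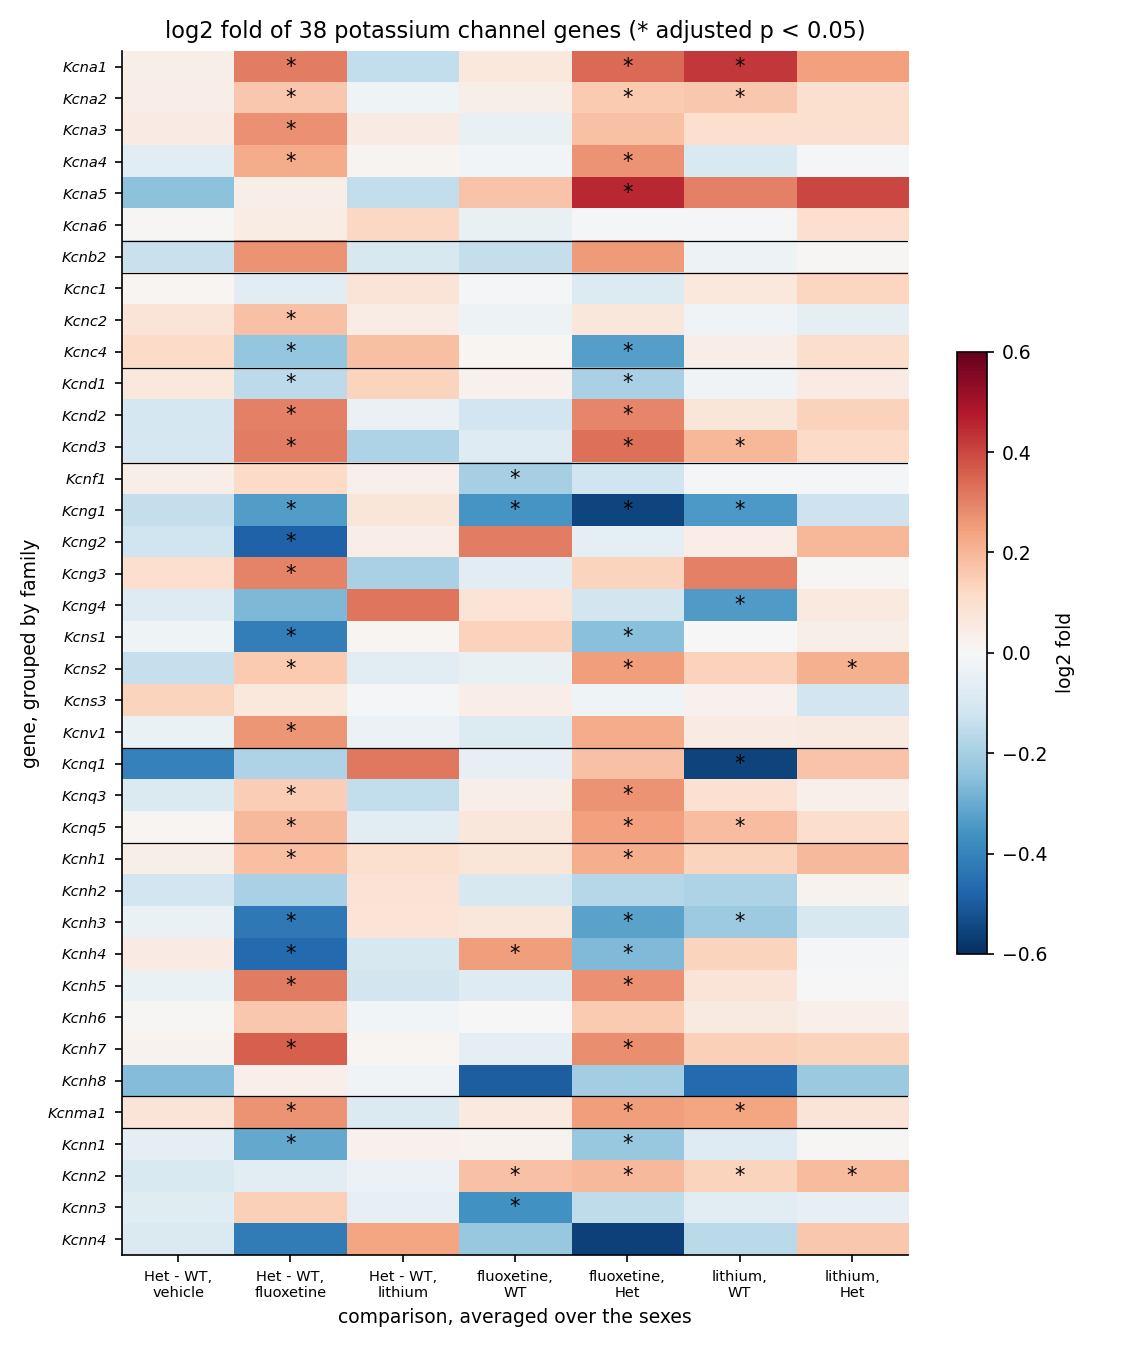
Log2 fold of each of 38 of the genes (rows, grouped by family) in the 7 comparisons of genotype and drug (columns), red for higher and blue for lower, with a star where the adjusted p is below 0.05. The 2 columns with Het fluoxetine libraries against others hold 24 and 21 stars, WT lithium 10, WT fluoxetine 5, Het lithium 2 and the genotype columns in vehicle and lithium none.

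A test of the difference between the genotypes' fluoxetine effects called 15 of the 42, 7 higher and 8 lower in Het (35.7%, against 24% of all genes, 11.9% higher and 12% lower). After GC correction it called 6, 5 higher and 1 lower, and 7.44% of all genes. Kcnd2 had the smallest p, at a difference of 0.41 on the log2 scale (SE 0.08, adjusted p = 0.000297). Kcnh4 was at -0.52 (SE 0.10, adjusted p = 0.000406), since it rose by 0.25 in WT and fell by 0.27 in Het. Kcnd3 was at 0.41 (SE 0.10, adjusted p = 0.00335).

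The Het fluoxetine libraries differed from the others in ways that moved with these results. Over 12438 genes, each library's deviations from the mean of all libraries correlated negatively with transcript GC content in all 10 Het fluoxetine libraries, with r from -0.524 to -0.186, and in 11 of the other 50. Among the 42 genes, those higher in Het fluoxetine than in Het vehicle had a median GC content of 48% (39.6% to 54.4%) and those lower 59.7% (53.8% to 61.2%). The correlation of fold with GC content was -0.551 over the 42 genes. Between the genotypes in fluoxetine it was -0.746. After GC correction, 12 of the 23 fluoxetine calls in Het and 10 of the 26 genotype calls in fluoxetine were kept. Kcna1, Kcnd2, Kcnd3, Kcng1 and Kcnma1 were among those kept in Het. Their log2 folds after correction were 0.35, 0.19, 0.32, -0.37 and 0.16. Kcnc4, Kcnd1, Kcnh3 and Kcnh4 were not called there after correction. Between the genotypes in fluoxetine the kept calls were Kcna1, Kcna3, Kcnd2, Kcnd3, Kcng3, Kcnh1, Kcnh3, Kcnh4, Kcnh5 and Kcnma1. Among those lost was Kcnh7, at 0.12 after correction (adjusted p = 0.114).

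With a term for the 10 libraries low in pseudogenes, 0 of the 42 were called in each of these 3 comparisons. The same fit called 0.275% of all genes for fluoxetine in Het, 0.0393% between the genotypes in fluoxetine and 0.0449% for the interaction. That term leaves the Het fluoxetine fold to rest mainly on Het fluoxetine male replicate 1, the 1 library of its condition outside the low set. The state of the low libraries and Het fluoxetine cannot be told apart in 9 of its 10 libraries. In that library Kcng1 was at 1321 and Kcnh4 at 511 normalised reads, Kcnd2 at 2741 and Kcnma1 at 10254. With the term, the folds of 6 of the 23 genes were at least 75% of their size and those of 13 were at most 50%. The median share over the 23 was 44%. Under the term Kcns2 went from 0.25 to -0.006, Kcnh7 from 0.28 to -0.035 and Kcnma1 from 0.25 to 0.074. Kcnd3 was at 0.34 (SE 0.13, adjusted p = 0.378) and Kcnh4 at -0.29 (SE 0.13, adjusted p = 0.507). Endothelial markers were lower in 4 of 6 in Het fluoxetine against Het vehicle, excitatory markers in 3 of 11, and interneuron markers were higher in 3 and lower in 3 of 13. Over all genes, 19.1% were called higher and 19.9% lower in that comparison. Summed excitatory markers were 120939 to 165800 in Het fluoxetine and 136690 to 207795 in Het vehicle. The part of these cells was not tested.

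**Figure D4:**
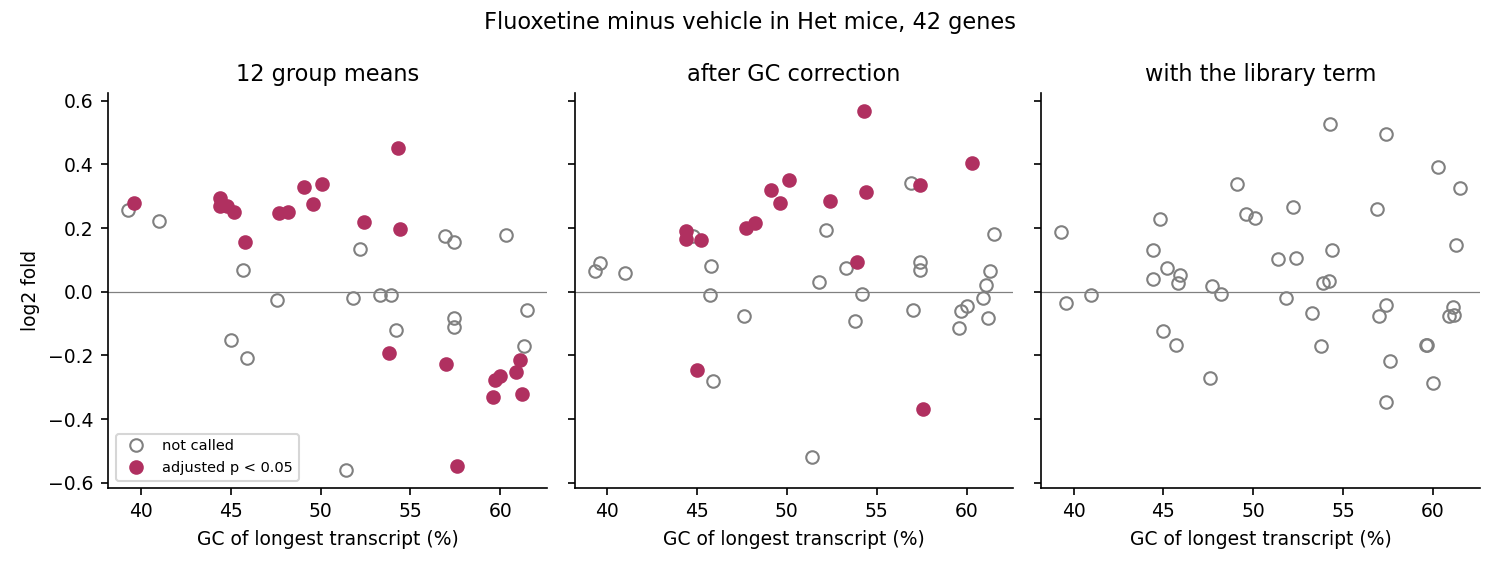
Log2 fold of the 42 genes for fluoxetine minus vehicle in Het mice, against the GC content of the longest transcript in percent, from the 12 group means (left), after GC correction (middle) and with the term for the 10 libraries low in pseudogenes (right), with filled points at an adjusted p below 0.05. Filled points number 23, 16 and 0, where 39%, 21.3% and 0.275% of all genes were called.

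Compared directly, fluoxetine and lithium differed in 13 of the 42 in WT mice, 3 higher and 10 lower under fluoxetine (13.1% of all genes were called, 5.92% higher and 7.14% lower). After GC correction the split was 1 higher and 12 lower, with 9.85% of all genes called. Kcna1 was lower under fluoxetine by a log2 fold of -0.36 (adjusted p = 0.00347), Kcnd3 by -0.28 (adjusted p = 0.00771) and Kcnn3 by -0.30 (adjusted p = 0.00832). Without WT lithium male replicate 5 the count was 7. In Het mice 16 differed, 6 higher and 10 lower (32.8% of all genes, 16.1% higher and 16.7% lower). After GC correction 5 did, with 13.4% of all genes called. The Kv3 gene Kcnc4 (-0.44, adjusted p = 2.86e-06) had the smallest p, and Kcnc1 (-0.21, adjusted p = 4.19e-05) was also lower.

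Averaged over treatments and genotypes, no member differed between the sexes (0.107% of all genes were called, 0.0618% higher and 0.0449% lower in females, 1 member had an unadjusted p below 0.05, and edgeR called 0). A test of whether the lithium effect in WT mice differed between the sexes called 4 of the 42 (9.64% of all genes). Kcnq3 had a log2 fold of -0.11 in females (adjusted p = 0.433) and rose by 0.29 in males (adjusted p = 0.0117), a difference of -0.40 (SE 0.12, adjusted p = 0.0315). Kcnb2 (-0.77) and Kcnh7 (-0.48) were also called. After GC correction the adjusted p was 0.217 for Kcnq3, 0.25 for Kcnb2 and 0.413 for Kcnh7, 1 of the 42 was called, and the calls over all genes went from 1716 to 77. Within males 10 of the 42 were called for lithium (20.8% of all genes) and within females 7 (11.8%), Kcna1 in both. Without the 3 outlying libraries the test of the difference called 0 members. Leaving out 1 library at a time gave 0 to 9. The same test for genotype in vehicle, for fluoxetine in each genotype and for lithium in Het called 0 members and 0 genes.

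Among auxiliary subunits, of which 16 of 23 were tested, Kcnmb1, a BK beta subunit, was lower in WT fluoxetine (-0.59, adjusted p = 0.0208). In WT lithium Kcnab3, a Kv1 beta subunit, was higher (0.28, adjusted p = 0.048) and Kcnmb4, the neuronal BK beta subunit, lower (-0.30, adjusted p = 0.00193). In Het lithium Kcnab3 was higher (0.38, adjusted p = 0.05 after rounding). In Het fluoxetine against Het vehicle, 3 were higher and 3 lower, which is 37.5% of the list and near the 39% of all genes. Dpp10, which joins Kv4 channels, and Kcnip4, which binds them, were higher, as was Kcnab1 (0.37, adjusted p = 0.000765), while Kcnip2, another Kv4 partner, was lower (-0.22, adjusted p = 0.0133).

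Of the other potassium channels (sodium-activated, inward-rectifier and tandem-pore channels), 27 of 31 were tested. Kcnk9, a background leak channel, was the only one of them called between the genotypes in vehicle, at a log2 fold of 0.29 (adjusted p = 0.000255). It was also higher in WT fluoxetine (0.21) and in WT lithium (0.42, adjusted p = 9.15e-09), and its genotype by lithium interaction was -0.38 (SE 0.06, adjusted p = 0.00402). In WT lithium 4 of the 27 were higher and 3 lower (25.9%, against 19.2% of all genes). Kcnj6, a G-protein-gated channel, was higher (0.40), and Kcnj8, which also marks pericytes, was lower (-0.43). In Het fluoxetine against Het vehicle 5 were higher and 4 lower (33.3%, against 39% of all genes).

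Of 22 clustering and trafficking partners, 11 were higher and 5 lower in Het fluoxetine against Het vehicle (72.7%, against 39% of all genes). In WT lithium 3 were higher and 2 lower, which is 22.7% and near the 19.2% of all genes. Ank2 and Ank3, ankyrins that anchor channels, were higher in Het fluoxetine (0.24 and 0.25), and so was Cntnap2, which clusters Kv1 channels (0.14, adjusted p = 0.000229). For these partners, neither GC correction nor the term for libraries low in pseudogenes was tested in Het fluoxetine. The same applies to the auxiliary subunits and the other potassium channels above. Of the 23 voltage-gated and calcium-activated channel genes called in Het fluoxetine against Het vehicle, 12 were kept after GC correction. In WT lithium Lgi1 was higher (0.24, adjusted p = 0.00288) and Dlg4, the scaffold PSD-95, lower (-0.21, adjusted p = 0.00526).

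Within groups, Kcna1 varied most alike with Kcna2 over the 60 libraries, with a Pearson r of 0.716 between residuals from the group means, then with Kcnma1 (0.624) and Kcnq5 (0.62). Kcnc1 and Kcnh2 gave 0.551. Over all 861 pairs of the 42 the median was 0.108, from -0.713 to 0.912. The points share libraries, depth and GC composition, and over the 57 libraries without the 3 outlying ones Kcna1 and Kcna2 gave 0.731 and Kcnc1 and Kcnh2 0.495.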

How the data were processed

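The deposited table gives, per gene and library, a signal that is never negative: normalised read counts, which the authors deposited as reads divided by 1 size factor per library. This was read off the values, which were whole multiples of a step in each column, within 0.001 of a whole number for all values. Salmon 0.11.2, DESeq2 1.19.11, R 3.6.0 and GRCm38 stand in the submitters' processing notes, with no roles given. Symbols, coordinates, transcript lengths and GC content came from GENCODE M21.

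The 17810 genes that reached 10 in 5 or more libraries were tested by limma 3.58.1 (R 4.3.3), applied to log2(value + 1) values with its trend and robust options, 12 group means and 48 residual degrees of freedom. Fold changes on this scale understate the change of low genes. The model was tested on simulated reads.

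Alternatives were TMM factors, no filter, a pseudocount of 5, the compared groups alone, a replicate block, a GC correction (loess, span 0.3), edgeR 4.0.16 on recovered reads (17776 genes), leaving out 3 libraries or each in turn, and terms for the 10 libraries low in pseudogenes and for the 11 without reads of the pseudogene Rps6-ps4. Tests of sex by effect were added after seeing the data.

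By rule members are named, those called with their fold and, where no member is called, the 3 with the smallest p. Sample ranges are given for the 12 called members with the smallest p and the 3 highest per kilobase. Other ranges were chosen after their values were seen. Values of some members are not reported here, although counts over the 42 include them. The members and lists were chosen with earlier results of these data known. No source used here says whether reads were counted by strand.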

Additional observations from a re-analysis of the deposited data

Results flagged for a closer look

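Within groups of 5 libraries of 1 genotype, treatment and sex, 144 groups over 12 of the channel genes were examined, and in 11 a library lay far from the other 4. Chance flags about 1 in 20 groups. WT lithium male replicate 5 stood apart for Kcnd2, Kcnh3 and Kcnma1, with 3809 normalised reads of Kcnd2 (the others 2685 to 3009), 2851 of Kcnh3 (4886 to 5447) and 13887 of Kcnma1 (9725 to 10807). WT lithium female replicate 5 had 2170.49 of Kcnd2 (2559 to 2642). WT vehicle female replicate 2 had 10972 of Kcnma1 (8889 to 9257) and 1156 of Kcns2 (883 to 917). Het vehicle male replicate 5 had 475 of Kcnh4 (647 to 685) and 2755 of Kcnd3 (1901 to 2079). WT vehicle male replicate 5 had 5070.16 of Kcnh3 (5906 to 6218), Het fluoxetine male replicate 2 had 1845 of Kcnc4 (2297 to 2374), and Het lithium female replicate 2 had 658 of Kcnn3 (766 to 805).

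The fluoxetine effect differed between the genotypes by limma's test of the interaction for the genes that follow, given as the log2 effect in Het minus that in WT. Above 0 were Kcnd2 (0.41), Kcnd3 (0.41), Kcnh5 (0.35), Kcnh7 (0.34), Kcns2 (0.29), Kcnq3 (0.24) and Kcnma1 (0.19). Below 0 were Kcnh4 (-0.52), Kcns1 (-0.39), Kcnh3 (-0.39), Kcnc4 (-0.34), Kcnn1 (-0.25) and Kcnd1 (-0.22). The test called 15 of the channel genes and 24% of all genes. GC correction kept 5 of these 15 calls, and 7.44% of all genes were then called. With the term for libraries low in pseudogenes, the effect in Het rests mainly on Het fluoxetine male replicate 1, so that fit cannot decide on these genes.

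The lithium effect in WT mice differed between the sexes by the same kind of test for the following genes, given as the log2 effect in females minus that in males: Kcnb2 (-0.77), Kcnh7 (-0.48) and Kcnq3 (-0.40). None of these 3 was called without the 3 outlying libraries, where calls over all genes went from 1716 to 1, or after GC correction. With 1 library left out at a time, Kcnq3 kept its call in 16 of 20 fits, Kcnb2 in 14 and Kcnh7 in 10.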

How the results depend on the processing

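The replicate numbers did not pair the samples: the 330 same-numbered pairs of libraries correlated at a median of -0.00259 (-0.541 to 0.554), other pairs at 0.0023, and 12 of 60 libraries correlated best with their own number. With a replicate block all 67 calls of the 7 comparisons of genotype and drug were kept, as they were with TMM factors, no filter and a pseudocount of 5. edgeR kept 64, leaving out the 3 libraries 63, the compared groups alone 57, GC correction 37, GC correction with the replicate block 38, the Rps6-ps4 term 19 and the library term 18. With GC correction, with or without the block, 14 genes were called between the genotypes in fluoxetine, 4 for lithium in Het and 6 for genotype by fluoxetine. Without the block, GC correction called 11.9%, 2.99% and 7.44% of all genes in these. Between fluoxetine and lithium in Het, GC correction called 5, and 6 with the block, with 13.4% of all genes called in both. The library term called 0 between the genotypes in fluoxetine, 0 for fluoxetine in Het, 0 for the interaction and 0 between the drugs in Het. Its shares of all genes called were 0.0393%, 0.275%, 0.0449% and 0.0505%. The Rps6-ps4 term called 1, 0, 1 and 0 in these comparisons, and 0.0842%, 1.86%, 0.236% and 0.41% of all genes. The groups alone called 2 for lithium in WT (7.18% of all genes) and 2 between the drugs in WT (2.52% of all genes). Without the 3 libraries 1 gene differed between the sexes. The causes were not tested. Other counts stayed within 1.5 times.

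Leaving out 1 library gave 23 to 26 between the genotypes in fluoxetine, 5 to 7 for fluoxetine in WT, 21 to 24 in Het, 6 to 13 for lithium in WT, 0 to 3 in Het, 11 to 17 for genotype by fluoxetine, 7 to 14 between the drugs in WT and 14 to 18 in Het. It gave 0 to 1 between the sexes, with 1 without WT lithium female replicate 5.

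Among genes called and named in the report, log2 folds that changed sign between the genotypes in fluoxetine were, with the library term, Kcnc2 at -0.0618, Kcnq3 at -0.0797, Kcnq5 at -0.0334 and Kcns2 at -0.100. With the Rps6-ps4 term Kcnq3 was at -0.00344 and Kcns2 at -0.0642, and with GC correction Kcnc4 was at 0.00282, also with the block. For fluoxetine in Het, among such genes, Kcnh7 was at -0.0350 and Kcns2 at -0.00588 with the library term. Among genes not called, others also changed sign, such as Kcnh2 between the genotypes (-0.19 to 0.12) and Kcnc2 for fluoxetine in Het (0.07 to -0.17) with the library term. With GC correction Kcnc1 went from -0.06 to 0.13 between the genotypes and was called (adjusted p = 0.0192). The causes were not tested.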
